A study of Bos taurus with 6 samples.

Results

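The genes described here make and use small RNAs in bovine oocytes: DROSHA and DGCR8, XPO5, DICER1 with its partners TARBP2 and PRKRA, and the Argonautes AGO1, AGO2, AGO3 and AGO4. They were chosen by name, as the microRNA machinery that also handles introduced small interfering RNA, and all 10 were found by symbol among the 17325 genes listed in every library. RNA came from cattle (Bos taurus) oocytes that had matured in culture as far as metaphase II, where the egg pauses until a sperm enters. There were 3 libraries labelled NC, the negative control, and 3 labelled siMTFP1, the knockdown of the mitochondrial fission gene MTFP1. Breed, culture conditions, the number of oocytes per library, and the sequence and dose of any interfering RNA, in either group, are not stated in the labels. The question put to these genes is whether their transcripts differed between the labelled groups, and how they stood to each other within the oocyte.

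A microRNA begins as a hairpin in a longer transcript. In the nucleus the RNase DROSHA, held by the RNA-binding protein DGCR8, cuts the hairpin out, and XPO5 carries it to the cytoplasm. There DICER1, helped by TARBP2 or PRKRA, trims it to a short duplex, and an Argonaute protein keeps 1 strand and uses it to find target mRNAs. Introduced small interfering RNA enters at the Argonaute step, and AGO2 is the mammalian Argonaute best known for cutting a fully matched target. In mouse oocytes microRNA activity is known to be weak, while DICER1 products that silence transposons and mRNAs are needed for meiosis.

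Levels are in FPKM, sequenced fragments divided by transcript length and by the mapped total, so transcript length is allowed for when genes are compared. Other effects that differ from gene to gene were not tested, so ratios between genes are approximate. Summed FPKM ran from 784365.7 to 892790.4 over the libraries, and 15120 to 15533 genes lay above 0. Sequencing depth is unknown. MTFP1, the labelled target, was at 0.53, 0.55 and 0.05 FPKM in NC 1, 2 and 3 and at 0.43, 0.58 and 1.15 in siMTFP1 1, 2 and 3. Its level thus did not follow the labels, but values this low rest on few reads and cannot decide whether the knockdown took place. Every direction below is that of the labels. All 12 oocyte markers were expressed, with a summed FPKM of 40787.3 to 44512.2 per library. Of these 12, 1 had groups that did not overlap, the zona pellucida gene ZP2, named after its values were seen. Among the 9730 genes averaging 1 FPKM or more, 11.0% had groups that did not overlap. ZP2 averaged 4566 ± 179 FPKM in NC and 3135 ± 96.3 in siMTFP1 (SD, n = 3). Its log2 difference was -0.54 (limma adjusted p = 0.447, 0.000347 before adjustment). The 16 cumulus and granulosa markers summed to 135.19 to 164.43 FPKM in NC and 151.89 to 187.75 in siMTFP1, with 5 of them (FSHR, AMH, CYP19A1, FST and INHBA) below a mean of 1. The most abundant were STAR, HAS2 and VCAN, at means over the 6 libraries of 65.7, 41.5 and 14.9 FPKM. These varied little (coefficients of variation 9.24%, 15.1% and 11.0%), so the sums hide spread in scarcer markers. LUM was highest at 22.85 FPKM in siMTFP1 2, CYP11A1 at 13.43 in siMTFP1 3 and HSD3B1 at 7.51 in NC 1. The inhibin subunit INHA averaged 1.54 ± 0.771 FPKM in NC and 7.87 ± 7.21 in siMTFP1, and TNFAIP6 averaged 7.99 ± 8.15 and 1.69 ± 1.00 (SD, n = 3, limma adjusted p = 0.750 and 0.766). Of the 4 measured blood and immune markers, the globin gene HBA averaged 60.3 ± 14.6 FPKM in NC and 35.7 ± 19.2 in siMTFP1 (limma adjusted p = 0.750). CD68 was at 0.107 ± 0.185 and 0.403 ± 0.0907 FPKM (adjusted p = 0.812 in limma without a filter), while PTPRC and CD14 did not exceed 0.08 in any library. The part of these other cells' RNA in the results below was not tested. In bulk RNA, fewer cells of a type and less RNA per cell cannot be told apart.

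The 10 genes spread over more than 3 orders of magnitude, and their order by level was nearly the same in every library. PRKRA was the most abundant and AGO4 the least abundant in all 6 libraries, with DROSHA and then DICER1 next below PRKRA. PRKRA alone made up 75.6% to 81.6% of the summed FPKM of the 10 genes. Between neighbours in the order, the gap in log2(FPKM + 1) was tested over the 6 libraries by an exact two-sided sign-flip permutation test, whose smallest possible p is 0.03125, adjusted over the 9 pairs. The order, and so the pairs and their direction, came from the same 6 libraries. These p-values are thus not an independent test of the order. Where the gap had the same sign in all 6, p takes its smallest possible value whatever the size or spread of the gap. It then says no more than the count of signs. The gap had the same sign in 6 of 6 libraries for PRKRA over DROSHA, DROSHA over DICER1, DICER1 over TARBP2, AGO2 over XPO5, XPO5 over DGCR8 and AGO3 over AGO4 (exact adjusted p = 0.0469 for each). The other neighbours did not differ beyond their spread. TARBP2 lay above AGO2 in 4 of 6 libraries (exact adjusted p = 0.25), DGCR8 above AGO1 in 5 of 6 (exact adjusted p = 0.121), and AGO1 above AGO3 in 5 of 6 (exact adjusted p = 0.176).

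**Figure D1:**
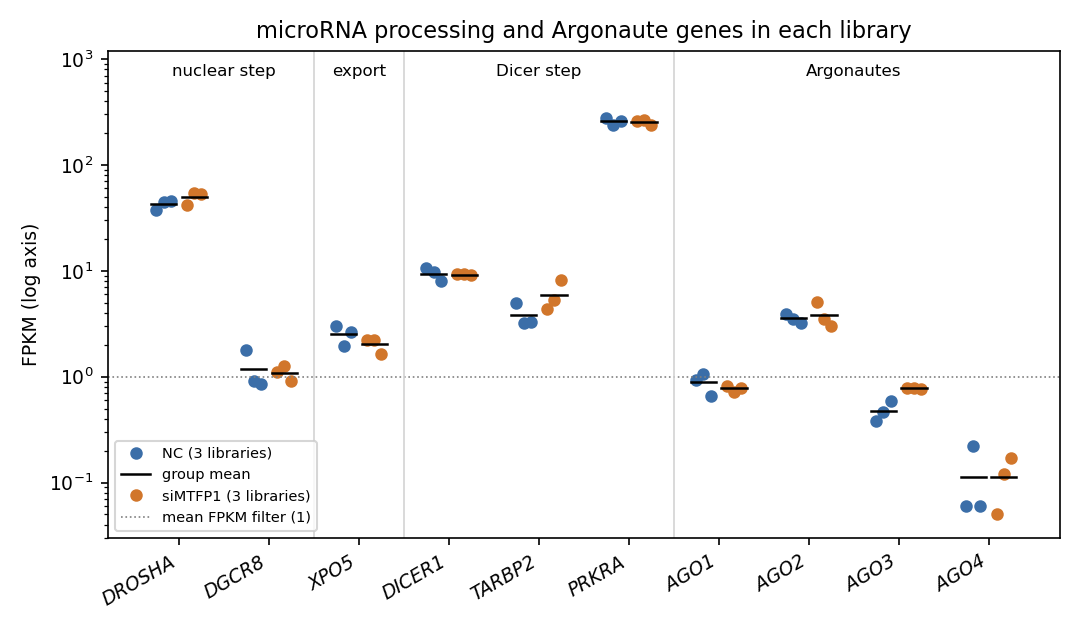
FPKM of the 10 genes (vertical axis, log scale) in each of the 3 NC and 3 siMTFP1 libraries (points), with black lines at the group means and a dotted line at 1 FPKM, the mean needed to enter the main test. PRKRA lies near 258 FPKM and AGO4 near 0.113 in both groups, and AGO3 has no overlap between the groups.

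At the nuclear step, DROSHA was plentiful and its partner DGCR8 was scarce. DROSHA, the RNase that cuts primary transcripts, was at 37.51, 44.23 and 45.96 FPKM in NC 1, 2 and 3 and at 41.71, 54.16 and 53.0 in siMTFP1 1, 2 and 3. The highest values were those of siMTFP1 2 and 3, while siMTFP1 1 lay among the NC values, so the groups overlapped. The means were 42.6 ± 4.46 and 49.6 ± 6.88 FPKM (SD, n = 3). The difference of 0.21 on the log2(FPKM + 1) scale (SE 0.16, 95% interval -0.15 to 0.57) did not pass limma's test over all genes (Benjamini-Hochberg adjusted p = 0.884). It was 0.13 without NC 1 and 0.33 without siMTFP1 1 (limma adjusted p = 0.933 and 0.659).

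DGCR8, which recognizes the hairpin for DROSHA, was at 1.77, 0.91 and 0.86 FPKM in NC and 1.10, 1.27 and 0.91 in siMTFP1. NC 1 was the highest library and the others lay close together across both groups. The log2 difference was -0.04 (SE 0.20, 95% interval -0.49 to 0.42, limma adjusted p = 0.986). Without NC 1 it was 0.15 (limma adjusted p = 0.923). DROSHA exceeded DGCR8 in every library, by 21.2-fold in NC 1 and by 37.9-fold to 58.2-fold in the other 5. The log2 ratio of DROSHA to DGCR8 averaged 5.25 ± 0.73 in NC and 5.51 ± 0.32 in siMTFP1 (SD, n = 3), a difference smaller than the spread between libraries (exact two-sided permutation p = 0.8, adjusted p = 0.96 over 6 such within-library quantities, where 3 against 3 cannot go below 0.1).

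XPO5, the exportin for microRNA hairpins, was at 2.98, 1.94 and 2.64 FPKM in NC and 2.22, 2.23 and 1.63 in siMTFP1. The lowest value was in siMTFP1 3 and the highest in NC 1, with the others overlapping. Its log2 difference was -0.21 (SE 0.18, 95% interval -0.63 to 0.20, limma adjusted p = 0.892). It was -0.34 without NC 2, -0.12 without NC 1 and -0.11 without siMTFP1 3. XPO5 overlaps POLR1C, a subunit gene of RNA polymerases, in the RefSeq annotation, and the sources used here do not say whether counting used strand, so reads from the overlap cannot be told apart. POLR1C itself averaged 0.327 ± 0.193 FPKM in NC and 0.653 ± 0.269 in siMTFP1 (SD, n = 3). The same limit holds for DGCR8, which overlaps the microRNA gene MIR1306 in that annotation.

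At the Dicer step, DICER1 was the steadiest gene after PRKRA, with a coefficient of variation over the 6 libraries of 8.77% against 6.12%. DICER1, the RNase that trims hairpins and long duplexes, was at 10.53, 9.71 and 8.03 FPKM in NC. In siMTFP1 it was at 9.25, 9.25 and 9.10 FPKM, all within the NC range. The log2 difference was -0.02 (SE 0.15, 95% interval -0.37 to 0.33, limma adjusted p = 0.987). Values are per gene, so isoforms of DICER1 are not resolved.

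PRKRA encodes a duplex-binding partner of DICER1 that is also an activator of the kinase PKR. It was at 279.11, 238.37 and 260.66 FPKM in NC and 261.14, 266.24 and 239.87 in siMTFP1. Its place among all 17325 genes ran from rank 489 to rank 571 over the 6 libraries. The siMTFP1 values all lay within the NC range, and the log2 difference was -0.02 (SE 0.12, 95% interval -0.29 to 0.25, limma adjusted p = 0.987). PRKRA exceeded DICER1 by 24.5-fold to 32.5-fold in every library. EIF2AK2, which encodes PKR, was listed at 0.53, 0.17 and 0.03 FPKM in NC and 0.31, 1.22 and 0.33 in siMTFP1, chosen after its values were seen as the kinase that PRKRA activates.

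TARBP2, the other duplex-binding partner of DICER1 and known as an inhibitor of PKR, had the largest difference among the 10 genes on the log2(FPKM + 1) scale, while by the ratio of group means AGO3, described below, was larger. It was at 4.92, 3.21 and 3.26 FPKM in NC and at 4.34, 5.25 and 8.21 in siMTFP1. The highest library was siMTFP1 3, and NC 1 lay above siMTFP1 1, so the groups overlapped. TARBP2 averaged 3.80 ± 0.97 FPKM in NC and 5.93 ± 2.02 in siMTFP1 (SD, n = 3), a ratio of 1.56. The log2 difference of 0.51 (SE 0.24, 95% interval -0.04 to 1.06) did not pass (limma adjusted p = 0.766 over all genes, 0.0635 before adjustment). Without siMTFP1 3 it was 0.29 (limma adjusted p = 0.872), and without NC 1 or siMTFP1 1 it was 0.67 and 0.68 (limma adjusted p = 0.670 and 0.558).

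The balance of these partners lay far toward PRKRA in all libraries. PRKRA exceeded TARBP2 by 56.7-fold, 74.3-fold and 80.0-fold in NC 1, 2 and 3 and by 60.2-fold, 50.7-fold and 29.2-fold in siMTFP1 1, 2 and 3. The lowest ratio, in siMTFP1 3, is that of the library with the highest TARBP2. The log2 ratio averaged 6.12 ± 0.26 in NC and 5.48 ± 0.54 in siMTFP1 (SD, n = 3), a difference of -0.64 with overlapping groups (exact two-sided permutation p = 0.2, adjusted p = 0.4). Without siMTFP1 3 the difference was -0.33.

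Among the Argonautes, which bind the small RNA and its target, AGO2 supplied most of the transcripts. AGO2 was at 3.95, 3.48 and 3.21 FPKM in NC and 5.03, 3.51 and 2.99 in siMTFP1. Both the highest and the lowest value were in siMTFP1 libraries, 1 and 3. The log2 difference was 0.07 (SE 0.19, 95% interval -0.37 to 0.51, limma adjusted p = 0.973), and it turned to -0.10 without siMTFP1 1 (limma adjusted p = 0.924). DICER1 exceeded AGO2 by 1.84-fold to 3.04-fold.

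AGO1, AGO3 and AGO4 each averaged under 1 FPKM, the mean needed to enter the main test, for which AGO1 at 0.830 lay just outside and DGCR8 at 1.14 just inside. Their tests come from the same model fitted without that filter on 17318 genes. The RefSeq annotation places these genes next to each other, in the order AGO3, AGO1, AGO4. There AGO3 overlaps a pseudogene and a tRNA gene, and AGO2 overlaps a long noncoding RNA gene. As for XPO5, reads from those overlaps cannot be told apart. The sources used here do not say how reads matching more than 1 paralog were assigned, so the split among Argonautes is uncertain.

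AGO1, which silences mainly without cutting, was at 0.93, 1.07 and 0.66 FPKM in NC and at 0.82, 0.72 and 0.78 in siMTFP1. The siMTFP1 values lay inside the NC range. The log2 difference was -0.08 (SE 0.12, 95% interval -0.38 to 0.21, limma adjusted p = 0.923), and it ran from -0.17 without NC 3 to -0.01 without NC 2. AGO4 was near 0 throughout, at 0.06, 0.22 and 0.06 FPKM in NC and 0.05, 0.12 and 0.17 in siMTFP1. Both groups averaged 0.113 FPKM, and the deposited values carry 2 decimals, so AGO4 has little resolution (log2 difference 0.00, SE 0.07, 95% interval -0.17 to 0.17, limma adjusted p = 1.00).

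AGO3 was the 1 gene of the 10 whose groups did not overlap. It was at 0.38, 0.46 and 0.59 FPKM in NC 1, 2 and 3. In siMTFP1 1, 2 and 3 it was at 0.78, 0.78 and 0.77 FPKM, above every NC library. AGO3 averaged 0.477 ± 0.106 FPKM in NC and 0.777 ± 0.00577 in siMTFP1 (SD, n = 3), a ratio of 1.63. The log2 difference of 0.27 (SE 0.09, 95% interval 0.05 to 0.49, pointwise) had an unadjusted limma p of 0.0250 and an adjusted p of 0.817, so it did not pass over all genes. The unadjusted value rose above 0.05 with the replicate number as a block (0.0504), under quantile normalization (0.102), with a pseudocount of 0.1 (0.0728) or without NC 1 (0.0616). It was lower with a pseudocount of 5 (0.0100), without NC 3 (0.0103) and in eBayes without trend (0.0107). Over all settings the limma adjusted p ran from 0.655 to 0.973. With a pseudocount of 0.1, which shrinks low genes less, the log2 difference was 0.62. Groups that did not overlap were found for 9.83% of the 17318 genes, and an unadjusted p under 0.05 for 6.01%, so 1 gene of 10 on either count is close to the background.

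Within the summed AGO1 to AGO4 signal, which was 5.32, 5.23 and 4.52 FPKM in NC and 6.68, 5.13 and 4.71 in siMTFP1, AGO2 held 63.5% to 75.3% in every library. AGO1 held 12.3% to 20.5% and AGO4 0.749% to 4.21%. AGO3 held 7.14%, 8.80% and 13.1% in NC and 11.7%, 15.2% and 16.3% in siMTFP1, means of 9.66 ± 3.05% and 14.4 ± 2.44% (SD, n = 3). A share does not depend on how a library was scaled, but it does depend on the other Argonautes, whose sum was highest in siMTFP1 1. On this scale AGO3 in siMTFP1 1 lay below NC 3 and the groups overlapped (exact two-sided permutation p = 0.2, adjusted p = 0.4). For AGO1 the exact p was also 0.2 (adjusted p = 0.4), for AGO2 it was 0.8 (adjusted p = 0.96) and for AGO4 it was 1.0.

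**Figure D2:**
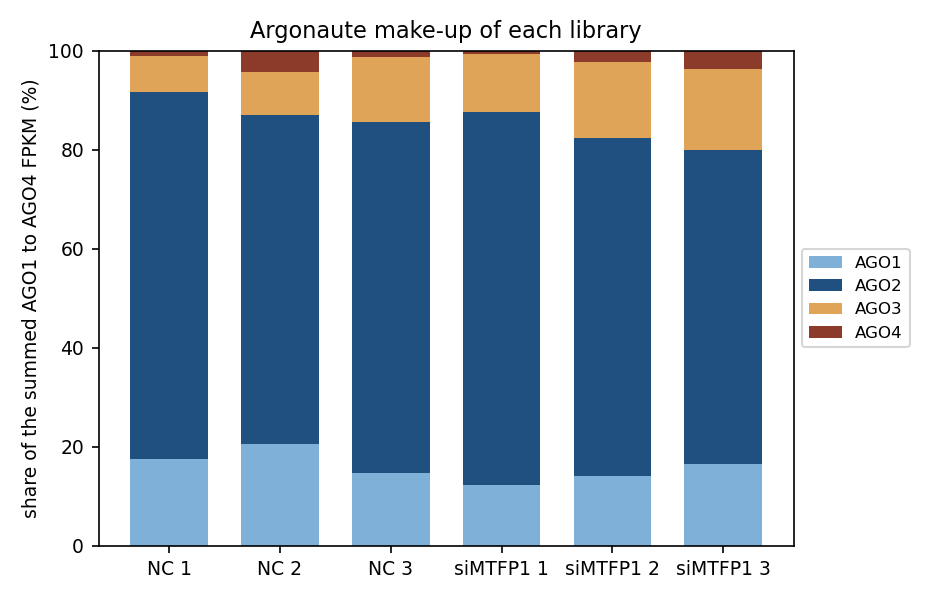
Share of AGO1, AGO2, AGO3 and AGO4 (stacked colours, bottom to top) in the summed FPKM of the 4 genes, in percent, in each of the 6 libraries. AGO2 holds 63.5% to 75.3% in every library, and AGO3 holds at most 13.1% in NC and 16.3% in siMTFP1.

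Across the group comparison, 0 of the 7 tested genes passed the adjusted threshold of 0.05 in limma, and 0 had an unadjusted p under 0.05. Of all 9730 tested genes 0% passed and 6.53% had an unadjusted p under 0.05, and in the fit without the filter 0% of 17318 passed. The groups overlapped in all 7, where 11.0% of the tested genes had groups that did not overlap. Of the 7, DROSHA, TARBP2 and AGO2 had a higher and DGCR8, XPO5, DICER1 and PRKRA a lower mean log2 level in siMTFP1, with a median difference of -0.02 against 0.02 over all tested genes. The differences of these 7 lay inside the range from -0.46 to 0.66 that holds the central 95% of tested genes. Those of AGO1, AGO3 and AGO4 did too, but that range comes from genes averaging 1 FPKM or more. The log2(FPKM + 1) scale compresses differences below that level, so their place in the range says little. The intervals still allow differences of size in both directions. They reach up to 1.06 for TARBP2 and 0.57 for DROSHA and down to -0.63 for XPO5 and -0.49 for DGCR8. The test thus does not show that the levels were alike. The labels do not tell whether replicates were separate cultures or animals, so the tests weigh differences against library spread that may be technical.

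**Figure D3:**
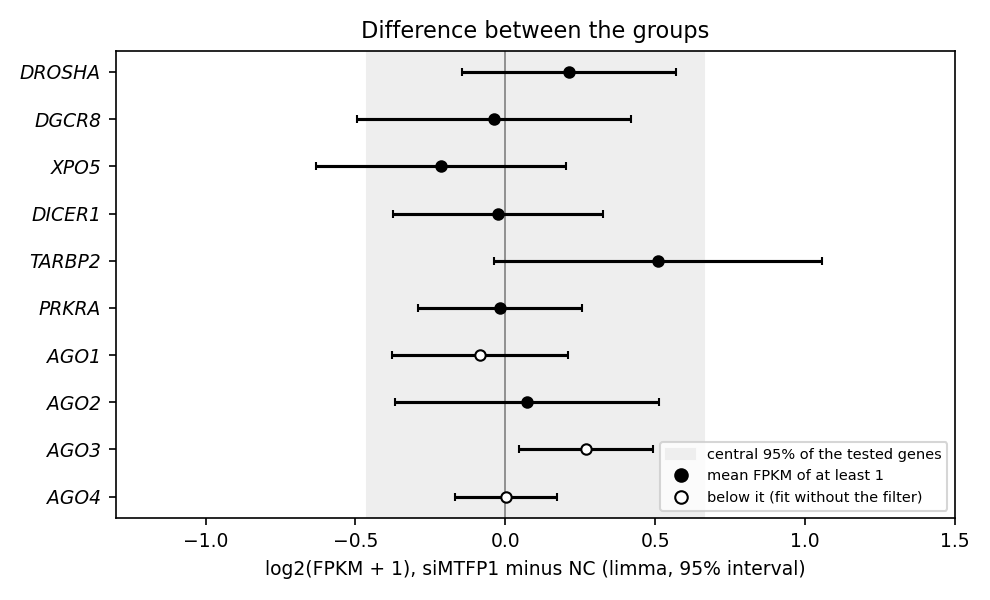
Difference in log2(FPKM + 1) between siMTFP1 and NC for each gene (points) with 95% limma intervals (bars), filled where the gene entered the main test and open where it comes from the fit without a filter. The grey band holds the central 95% of all tested genes, from -0.46 to 0.66, and every point lies inside it. The scale compresses differences of the open points, so the band says little about them.

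The proteins that work around these genes were followed with 7 lists of 93 genes, of which 80 entered the test. By limma 0 of the 80 passed over all genes, 1 had an unadjusted p under 0.05 in the higher direction (1.25%) and 0 in the lower, where the background was 3.86% higher and 2.66% lower. The gene was FKBP4, a co-chaperone of HSP90 that helps load Argonaute. It was at 2.25, 1.46 and 1.25 FPKM in NC and 2.53, 3.51 and 2.19 in siMTFP1, with siMTFP1 3 just below NC 1 (log2 difference 0.50, SE 0.21, limma adjusted p = 0.750). In the list of loading and chaperone genes that holds it, the count at an unadjusted p under 0.05 was 0 under 6 alternative settings and 1 under 9. The median log2 difference over the 80 was 0.03.

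Partners of the nuclear step had 8 higher and 3 lower means of 11 tested, with a median difference of 0.21 and values from -0.34 to 0.41, where 5275 of all 9730 tested genes had a higher mean. That median was 0.102 without NC 3 and 0.0897 without siMTFP1 1. Their most abundant genes were ERH, a small protein that binds DGCR8, at 852 ± 65.0 and 814 ± 118 FPKM (SD, n = 3), and the splicing protein HNRNPA1 at 65.9 ± 10.2 and 76.5 ± 2.01. ERH thus stood far above DGCR8 in every library. The m6A writer METTL3 was higher and the splicing factor SRSF3 lower without overlap, at log2 differences of 0.33 and -0.34 (limma adjusted p = 0.789 and 0.766). In export, tailing and decay of precursors, 3 of 6 were higher and 3 lower. RAN, the GTPase that drives export by XPO5, was at 306.84, 280.0 and 227.84 FPKM in NC and at 226.99, 212.72 and 218.28 in siMTFP1, where each value was below each NC value. RAN differed by -0.30 on the log2 scale (SE 0.14, limma adjusted p = 0.766, 0.0629 before adjustment). The poly(A) polymerase PAPD4 averaged 88.6 ± 12.1 and 93.9 ± 12.5 FPKM.

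Among genes for Argonaute loading and chaperones, 8 of 11 had a higher mean, with a median of 0.12 that was -0.00466 without NC 3 and 0.0550 without siMTFP1 1 and was 0.189 without NC 1 and 0.194 without siMTFP1 3. Argonaute partners and turnover factors had 5 higher and 8 lower means of 13, with a median of -0.04, and were led in abundance by the ubiquitin-conjugating enzyme UBE2D3 at 2864 ± 202 and 2591 ± 57.0 FPKM and the RNA-binding protein FMR1 at 76.6 ± 19.0 and 71.2 ± 7.56. The effectors of silencing, which shorten poly(A) tails and remove caps, had 10 higher and 11 lower of 21 (median -0.02). The deadenylases CNOT7 and CNOT8 averaged 404 ± 11.0 and 427 ± 37.5 FPKM, and 149 ± 4.13 and 154 ± 21.8. CNOT6 and DCP1A were lower without overlap, at -0.29 and -0.17 (limma adjusted p = 0.828 and 0.892).

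Decay factors for small RNA and passenger strands had 3 higher and 5 lower of 8 (median -0.02), with the ribonuclease PARN at 73.7 ± 5.11 and 69.9 ± 7.12 FPKM and the endonuclease ENDOV at 43.9 ± 4.77 and 41.9 ± 6.76. Other proteins that bind double-stranded RNA had 9 higher and 1 lower of 10, beside the 5275 of 9730 over all tested genes, with a median of 0.15 that was 0.0722 without NC 3 and 0.0867 without siMTFP1 2. Their most abundant genes were ADAD1, a germ-cell relative of the RNA-editing enzymes, at 79.8 ± 5.08 and 90.6 ± 15.4 FPKM, and the mRNA transport protein STAU1 at 57.7 ± 7.86 and 64.9 ± 8.71. The helicase gene DHX9 was higher without overlap, at 0.24 (limma adjusted p = 0.864). In all, 6 of the 80 genes had groups that did not overlap, or 7.5%, against 11.0% of all tested genes. Those 6 were METTL3, SRSF3, RAN, CNOT6, DCP1A and DHX9, of which all but RAN were named after their values were seen. Below the filter, the list gene DCP1B, also named after its values were seen, was higher without overlap. It averaged 0.273 ± 0.0839 and 0.507 ± 0.0551 FPKM (limma without a filter, unadjusted p = 0.0163, adjusted p = 0.777). In that fit 9.83% of 17318 genes did not overlap and 6.01% had an unadjusted p under 0.05.

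**Figure D4:**
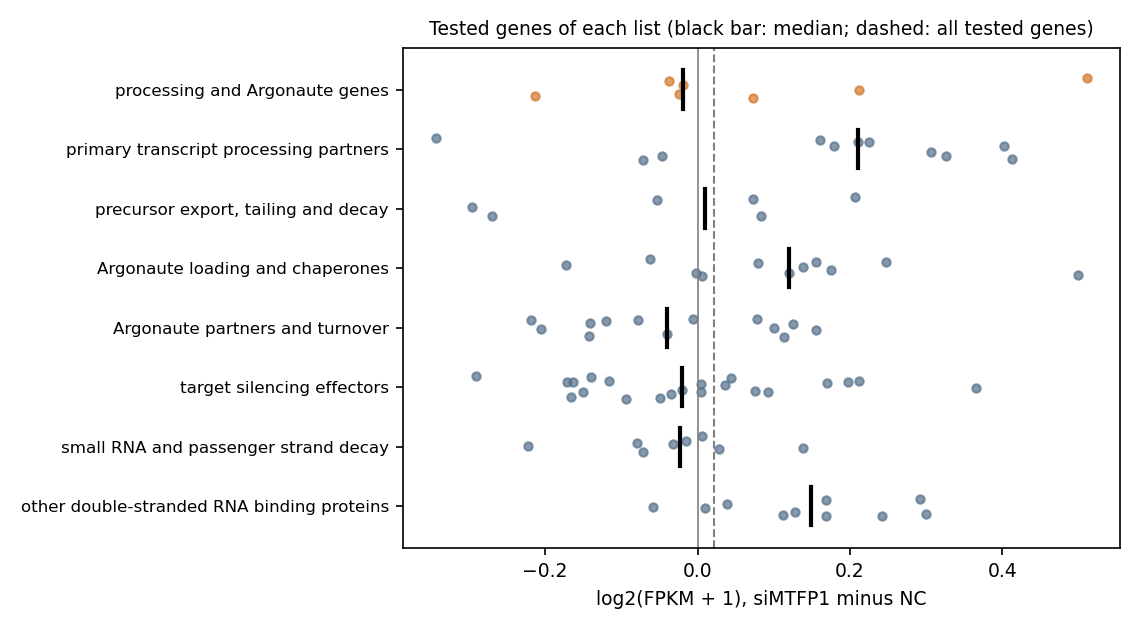
Difference in log2(FPKM + 1) between siMTFP1 and NC for each tested gene (points, spread vertically for view) of the 10-gene set and of 7 lists of related proteins, with the median of each list (black bar) and of all tested genes (dashed line, 0.02). List medians run from -0.04 to 0.21.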

How the data were processed

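Per the labels' protocols, RNA was extracted with TRIzol and made into mRNA libraries with a BGI kit. Per the file headers, the authors deposited FPKM values with 2 decimals for 17325 genes in each of 6 libraries. Per the submitters' processing notes, the tools were RSEM 1.3.1, DESeq2 1.4.5, Bowtie2 2.3.4.3 and HISAT2 2.2.1 on build ARS-UCD1.2, with no roles stated. No depth can be read from the files, and the commonest log2 ratio of low values between libraries lay within 0.1 of 0 in 14 of 15 pairs. Samples were grouped by their titles. The 9730 genes averaging 1 FPKM or more were compared as log2(FPKM + 1), a scale that understates changes of low genes, with limma 3.58.1 in R 4.3.3 (eBayes with trend, two-sided, Benjamini-Hochberg over all tested genes). The test was first run on simulated data. Single values were compared by exact permutation tests. RefSeq's table for ARS-UCD2.0 matched all 10 genes by ID and was used for names and neighbours only. Genes were named from the lists by unadjusted p, or by abundance where none was under 0.05. Further list genes were named after their values were seen, as stated above. The members and lists were chosen with earlier results of these data known.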

Additional observations from a re-analysis of the deposited data

How the results depend on the processing

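Alternatives were pseudocounts of 0.1 and 5, other filters, scalings, a replicate block, eBayes without trend and leaving out each library; 0 of the 10 genes passed the adjusted threshold in any of them, the lowest limma adjusted p being 0.558. The sign turned in 14 of 140 recomputed differences of the 10 genes, all of genes whose log2 difference was at most 0.07 in size. AGO4 turned to -0.000349 with equal sums, -0.00116 with median-ratio scaling, -0.0247 under quantile normalization, and ranged from -0.0347 to 0.0694 without 1 library. PRKRA turned to 0.00242 under quantile normalization. Without 1 library the ranges were -0.0779 to 0.0354 for PRKRA, -0.124 to 0.0527 for DICER1, -0.14 to 0.15 for DGCR8 and -0.10 to 0.20 for AGO2. The median over the tested genes of the set ranged from -0.0344 to 0.126 without 1 library, the highest without NC 1, and was -0.0521 under median-ratio scaling. Without 1 library the share of AGO2 differed by between -4.65 and 1.26 percentage points and that of AGO4 by between -0.677 and 1.00, and the log2 ratio of DROSHA to DGCR8 by between -0.16 and 0.503. Of the 7 genes past the filter, 0 to 1 had an unadjusted limma p under 0.05 without 1 library (TARBP2 without NC 1 or siMTFP1 1). With no filter 1 of the 10 genes did (AGO3), and AGO3 stayed under 0.05 in that fit without any 1 library other than NC 1. Over all genes 2 passed the adjusted threshold with equal sums or a mean FPKM of at least 5, and 0 to 2 without 1 library. The number at an unadjusted p was 358 at a mean of at least 5, 1041 with no filter, and 336 (without siMTFP1 2) to 764 without 1 library. The labels do not say whether replicate numbers pair the samples. Same-numbered libraries' deviations correlated at 0.03, -0.16 and 0.07, and those of other NC and siMTFP1 pairs at -0.26 to 0.23. With so few libraries these values cannot decide it. The replicate block left 630 genes at an unadjusted p and changed no adjusted call. The causes were not tested. Values under 1 FPKM, of AGO1, AGO3 and AGO4, rest on few reads of unknown number.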
